A study of Mus musculus with 28 samples.

Results

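Interstitial matrix and myofibroblast genes are described here in whole kidney and in sorted kidney macrophages of mice that lacked Fcgr2b, Rhbdf2, both or neither. The group holds 31 genes, which were taken by name for what their products do (fibrillar and other interstitial collagens, enzymes that cross-link or degrade them, and markers of matrix-producing cells), with earlier results of these data known. Each gene was found by its symbol, and all 31 were among the 12315 genes listed for whole kidney. Of these, 12 were also among the 10523 genes listed for macrophages (Col5a2, Col15a1, Col18a1, Acta2, Tagln, Tgfb1, Tgfbi, Mmp2, Timp2, Sparc, Vim and Bgn). The other 19 were not analysed there.

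All mice were C57BL/6 females aged 7 to 9 months, and the labels call them littermates. Double-mutant mice lacked both Fcgr2b and Rhbdf2 (Fcgr2b-/- Rhbdf2-/-), Fcgr2b-/- mice lacked the inhibitory receptor for IgG, Rhbdf2-/- mice lacked iRhom2, the partner that brings the protease ADAM17 to the cell surface, and WT mice lacked neither. The genotype label spells the receptor gene FcR2b-/-, the protocol Fcgr2b-/-, and double-mutant titles name the Rhbdf2 knockout alone. There were 4 whole-kidney libraries and 3 macrophage libraries of each genotype, numbered 1 to 4 and 1 to 3 below. Macrophages had been sorted as CD45+ cells with high F4/80, positive for CD11b and negative for Ly6G and Ly6C, after collagenase digestion and a Percoll gradient. The series compares the genotypes to ask what iRhom2 contributes to lupus nephritis.

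Kidney libraries held 29013923 to 41615985 reads in the listed genes and macrophage libraries 30852274 to 34868716. The labels do not say that libraries came from separate mice, and the spread that p-values rest on is that between these samples and may be technical in part. Each kidney genotype had a sequencing lane of its own (lane 8 for double-mutant, lane 7 for Fcgr2b-/-, lane 6 for Rhbdf2-/- and lane 5 for WT), and effects of lane and of genotype cannot be told apart. Levels are given as CPM, the reads of a gene scaled to a library size that the deposited values carry. That size was not the plain read total of each library. Rhbdf2 reads lay at 9.29 to 19.7 CPM in double-mutant, 25.0 to 37.1 in Fcgr2b-/-, 10.8 to 12.3 in Rhbdf2-/- and 12.9 in WT kidneys, and Fcgr2b reads at 20.7 to 41.5 CPM in double-mutant, 23.4 to 34.2 in Fcgr2b-/-, 31.7 to 35.3 in Rhbdf2-/- and 29.3 to 35.8 in WT kidneys. The labels do not say which part of either gene is deleted, so these totals do not check the genotypes. Proximal tubule markers, all 5 listed, summed to 6935 to 8720.5 CPM in double-mutant, 2353 to 5076 CPM in Fcgr2b-/-, 9272 to 10200.0 CPM in Rhbdf2-/- and 9653 to 11534 CPM in WT kidneys. In the sorted cells 13 of 14 macrophage markers were listed and summed to 40164 to 46237 CPM in double-mutant, 47161 to 61623 CPM in Fcgr2b-/-, 27969.8 to 30472 CPM in Rhbdf2-/- and 25087 to 34203 CPM in WT macrophages.

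The kidney interstitium is held by a loose network of collagens, proteoglycans and elastic microfibrils that fibroblasts and pericytes make. In injury these cells can turn into myofibroblasts, which carry contractile smooth muscle actin and secrete more matrix, and transforming growth factor beta, released from a latent complex in the matrix, is the best known signal for that change. Cross-linking enzymes then stiffen the collagen, and metalloproteinases and their tissue inhibitors set how fast it is broken down.

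In Fcgr2b-/- kidneys 29 of the 31 genes rose relative to WT kidneys, and none fell. A gene was called changed when its limma adjusted p, over all listed genes, was below 0.05. Of all listed kidney genes, 29.5% were called higher and 30.8% lower in that comparison. Changes are differences of log2(CPM + 1) and are given ± their SE. Over the 31 genes the median log2 change was 1.87, against -0.01 over all genes, and the single changes ran from 0.50 (Pdgfra) to 4.71 (Ltbp2). The 4 Fcgr2b-/- values lay above all 4 WT values for 26 of the 31, a pattern seen in that direction for 25.3% of all genes. Only Pdgfra and Postn were not called. In the double mutant 25 of the 31 fell relative to Fcgr2b-/- kidneys, with a median log2 change of -1.35 against a value close to 0 over all genes, and 22.8% of all kidney genes were called lower there and 22.5% higher. Both comparisons use the same Fcgr2b-/- libraries. All double-mutant values lay below all Fcgr2b-/- values for 14 of the 31, against 17.2% of all genes.

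**Figure D1:**
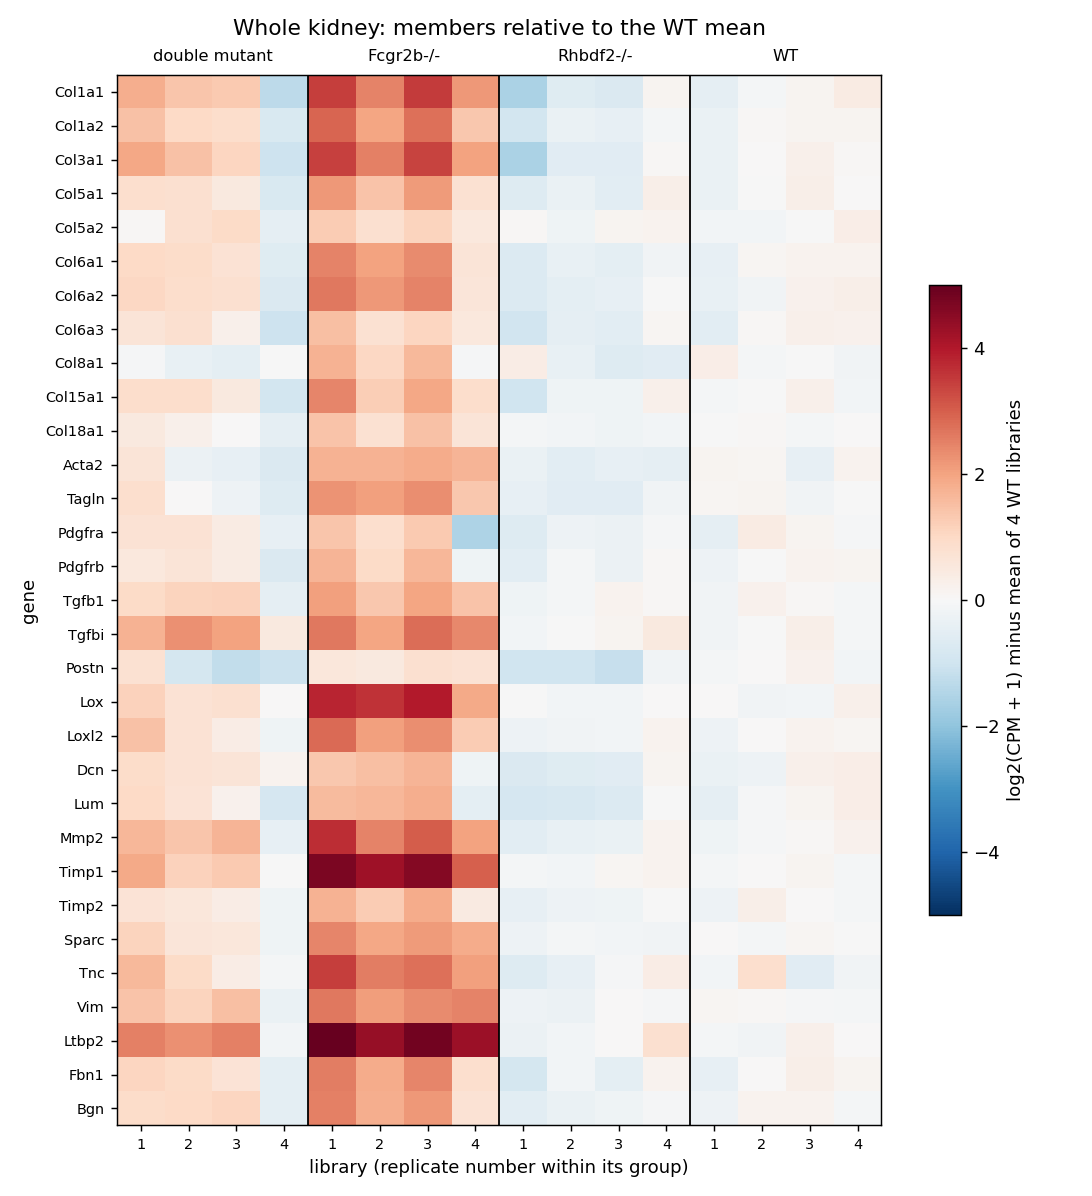
Level of each of the 31 genes (vertical) in each of the 16 kidney libraries (horizontal, by genotype and replicate) as log2(CPM + 1) minus the WT mean of that gene. The Fcgr2b-/- columns are raised for nearly every gene, most of all Ltbp2 and Timp1, and replicate 4 of the double mutant is at or below the WT level for most genes.

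Promoter sequence is shown for the 3 genes with the largest rise in Fcgr2b-/- kidneys on the log2(CPM + 1) scale among those with a RefSeq promoter window, so that the start regions of genes that rose together can be read side by side. Each is the 250 bases before the start, read 5′ to 3′ on the strand of the gene (RefSeq, build GRCm38.p6), with copies of the Smad box CAGAC or its complement GTCTG in capitals. They lie at chr12:84876492-84876741 on the minus strand (Ltbp2), chrX:20869916-20870165 on the plus strand (Timp1) and chr1:45311288-45311537 on the plus strand (Col3a1).
Ltbp2: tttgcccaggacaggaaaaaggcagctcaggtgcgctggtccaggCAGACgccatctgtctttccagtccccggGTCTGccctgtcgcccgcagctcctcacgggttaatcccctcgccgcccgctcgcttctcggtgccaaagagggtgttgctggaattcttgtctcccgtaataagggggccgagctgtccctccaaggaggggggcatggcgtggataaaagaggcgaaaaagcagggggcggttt
Timp1: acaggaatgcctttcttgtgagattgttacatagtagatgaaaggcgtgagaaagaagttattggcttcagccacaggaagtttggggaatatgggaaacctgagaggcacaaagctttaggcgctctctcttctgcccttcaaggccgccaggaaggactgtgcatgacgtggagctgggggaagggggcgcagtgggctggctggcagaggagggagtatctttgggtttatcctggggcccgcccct
Col3a1: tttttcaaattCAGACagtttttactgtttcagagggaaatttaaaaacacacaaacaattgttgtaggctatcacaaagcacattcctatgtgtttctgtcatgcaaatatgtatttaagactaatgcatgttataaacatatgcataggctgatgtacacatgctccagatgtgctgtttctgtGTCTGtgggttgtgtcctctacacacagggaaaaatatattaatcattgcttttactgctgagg
Ltbp2 held Smad boxes 205 and 176 bases before its start and Col3a1 at 239 and 64 bases, and none was found in the Timp1 window. Windows of 250 bases before to 50 bases after the start were found for 22 of the 31 genes, and both strands were searched. CAGAC was in 15 of the 22 (68.2%), against 53.2% of 27025 genes with a window. TATAAA, the TATA box, was in 4 of the 22 (Col3a1, Postn, Tnc and Vim) against 15.7% of genes, and TGANTCA, the AP-1 site, in 1 (Col6a1) against 8.97%. No member window held CCWWWWWWGG (W is A or T), the strict form of the CArG box that serum response factor binds, and 1.81% of genes did. Variants of that form were not searched, and Tagln was among the genes without a window. A match describes letters only, is no sign that a factor binds there, and the absence of a match says only that these letters are not in this window.

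Fibrillar collagens I, III and V, which form the tensile fibres of scar and of normal interstitium, rose in Fcgr2b-/- kidneys. Col1a1, the main chain of type I collagen (chr11:94936224-94953042), was measured at 81.7, 60.4, 57.5 and 8.48 CPM in double-mutant kidneys, 258, 129, 265 and 105 CPM in Fcgr2b-/- kidneys, 6.88, 14.2, 13.1 and 24.9 CPM in Rhbdf2-/- kidneys and 16.0, 20.6, 24.8 and 30.4 CPM in WT kidneys. All 4 Fcgr2b-/- libraries stood above every other library, 3 double-mutant libraries lay above all WT libraries, and double-mutant replicate 4 lay below them. Its log2 change was 2.91 ± 0.56 (limma, adjusted p = 0.000463) in Fcgr2b-/- over WT kidneys and -2.10 ± 0.56 (limma, adjusted p = 0.00725) in double-mutant over Fcgr2b-/- kidneys. Col3a1, the chain of type III collagen (chr1:45311538-45349706), whose promoter is shown above, had 165, 120.4, 90.8 and 20.3 CPM in double-mutant kidneys, 464, 254, 461 and 177 CPM in Fcgr2b-/- kidneys, 13.6, 28.6, 28.3 and 44.3 CPM in Rhbdf2-/- kidneys and 34.2, 43.5, 50.9 and 44.7 CPM in WT kidneys. Its groups were ordered as those of Col1a1, without overlap between double-mutant and Fcgr2b-/- kidneys. The log2 change of Col3a1 was 2.84 ± 0.52 (limma, adjusted p = 0.00031) in Fcgr2b-/- over WT and -1.99 ± 0.52 (limma, adjusted p = 0.00641) in double-mutant over Fcgr2b-/- kidneys.

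Col1a2, the partner chain of type I collagen, moved likewise by 2.24 ± 0.41 (limma, adjusted p = 0.0003) and -1.59 ± 0.41 (limma, adjusted p = 0.00565). Its double-mutant values (34.2 to 165 CPM) overlapped the lowest of the Fcgr2b-/- values (149.8 to 448 CPM). Col5a1, a chain of type V collagen that seeds fibrils, rose by 1.63 ± 0.36 in Fcgr2b-/- kidneys (adjusted p = 0.00133) and fell in the double mutant, with a log2 change of -1.28 ± 0.36 (adjusted p = 0.0096), both in limma. Col5a2, its partner chain and the neighbour of Col3a1 on chromosome 1, changed less. It lay at 37.6, 64.4, 70.3 and 26.3 CPM in double-mutant and 88.4, 63.4, 79.5 and 52.8 CPM in Fcgr2b-/- kidneys, which overlapped, and 32.4 to 46.1 CPM in WT kidneys. It rose by 0.93 ± 0.25 in Fcgr2b-/- kidneys (limma adjusted p = 0.00544) and was not called in the double mutant over Fcgr2b-/- (-0.59 ± 0.25, limma adjusted p = 0.0713). Without Fcgr2b-/- replicate 4, double-mutant replicate 2 or double-mutant replicate 3 it was called lower there, with limma adjusted p = 0.0393, 0.0326 and 0.019.

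The beaded-filament collagen VI and the collagens found around vessels and next to basement membranes also rose in Fcgr2b-/- kidneys. Col6a1, a chain of collagen VI (chr10:76708792-76726168), had 43.6, 41.1, 35.9 and 13.4 CPM in double-mutant kidneys, 122, 87.2, 112 and 33.7 CPM in Fcgr2b-/- kidneys, 12.6, 16.1, 14.7 and 18.6 CPM in Rhbdf2-/- kidneys and 15.7, 22.5, 23.7 and 23.7 CPM in WT kidneys. Fcgr2b-/- replicate 4 was the lowest of its group and lay below 3 of the double-mutant libraries, double-mutant replicate 4 lay below every WT library, and WT replicate 1 stood below the other WT libraries. Col6a1 changed by 1.87 ± 0.38 (limma, adjusted p = 0.00067) in Fcgr2b-/- over WT and -1.35 ± 0.38 (limma, adjusted p = 0.00935) in double-mutant over Fcgr2b-/- kidneys. Col6a2, encoded 85161 bases from Col6a1 on chromosome 10, changed by 1.96 and -1.45 in the same comparisons, and both passed the test. Col6a3, the chain that gives the fragment endotrophin, rose by 0.97 ± 0.35 (limma adjusted p = 0.0254) and was not called in the double mutant over Fcgr2b-/- (-0.80 ± 0.35, limma adjusted p = 0.0739). Its rise was not called without Fcgr2b-/- replicate 1, Fcgr2b-/- replicate 3 or WT replicate 1 (limma adjusted p = 0.0786, 0.0535 and 0.0833), and the fall in the double mutant was called without double-mutant replicate 2 (limma adjusted p = 0.0346).

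Col8a1, a short-chain collagen of vessel walls (chr16:57624258-57754737), had 16.7, 13.4, 12.1 and 17.1 CPM in double-mutant kidneys, 59.8, 36.9, 55.9 and 16.6 CPM in Fcgr2b-/- kidneys, 22.7, 13.1, 10.9 and 11.5 CPM in Rhbdf2-/- kidneys and 22.1, 16.2, 17.1 and 15.1 CPM in WT kidneys. Here the double-mutant values, replicate 4 included, lay among or below the WT values, and Fcgr2b-/- replicate 4 lay among the WT values. Col8a1 rose by 1.08 ± 0.32 in Fcgr2b-/- kidneys (limma adjusted p = 0.00883) and fell in the double mutant over Fcgr2b-/-, with a log2 change of -1.32 ± 0.32 (limma adjusted p = 0.00377). Col15a1, a collagen that links fibrils to basement membranes, lay at 12.9 to 47.9 CPM in double-mutant, 48.0 to 141 CPM in Fcgr2b-/-, 12.3 to 30.9 CPM in Rhbdf2-/- and 22.8 to 30.8 CPM in WT kidneys. It rose by 1.62 ± 0.39 and then fell in the double mutant, with a log2 change of -1.29 ± 0.39 (limma adjusted p = 0.00257 and 0.0151). Col18a1, the source of endostatin (chr10:77052178-77166548), had 232, 199, 168 and 121 CPM in double-mutant kidneys, 445, 279.8, 451 and 256 CPM in Fcgr2b-/- kidneys, 156, 149.7, 141 and 152 CPM in Rhbdf2-/- kidneys and 162, 174, 156 and 168 CPM in WT kidneys. All double-mutant values lay below all Fcgr2b-/- values, and it changed by 1.07 ± 0.19 (limma, adjusted p = 0.000256) in Fcgr2b-/- over WT and -0.98 ± 0.19 (limma, adjusted p = 0.000898) in double-mutant over Fcgr2b-/- kidneys. Without Fcgr2b-/- replicate 1 the fall of Col15a1 in the double mutant was not called (limma adjusted p = 0.0524).

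**Figure D2:**
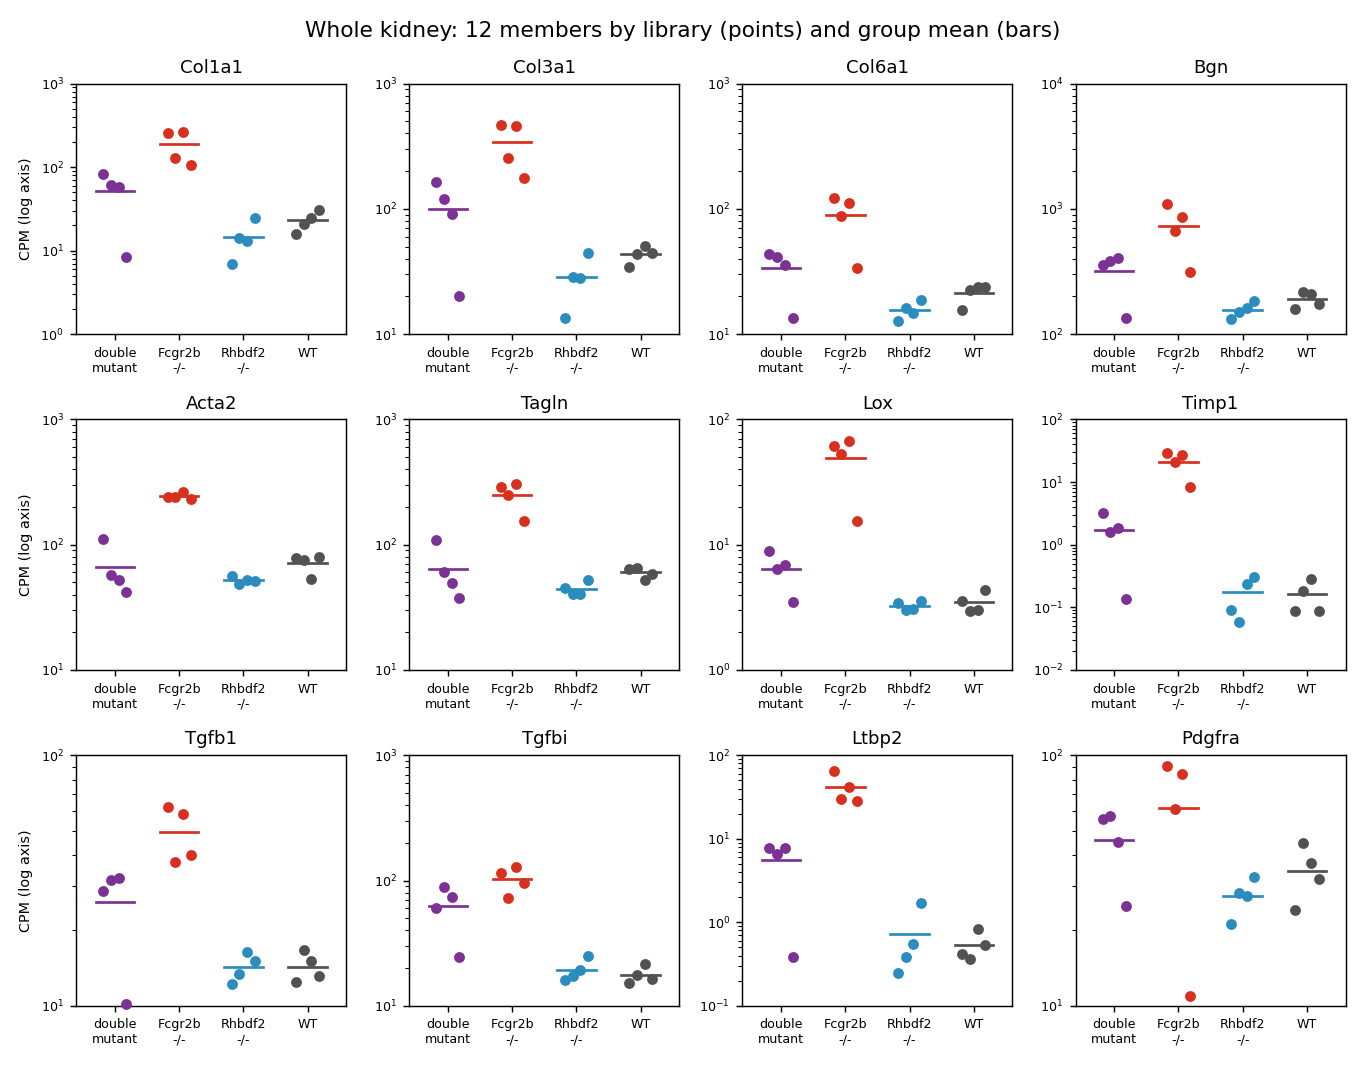
Level in CPM (log axis) of 12 of the genes in each kidney library, by genotype, with 1 point per library and the group mean as a bar. Fcgr2b-/- libraries are the highest for Col1a1, Acta2, Tagln, Lox, Timp1 and Ltbp2, and 1 double-mutant library lies far below the other 3 for Col1a1, Timp1, Tgfb1 and Ltbp2.

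The contractile and cytoskeletal markers of myofibroblasts rose in Fcgr2b-/- kidneys and fell in the double mutant. Acta2, alpha smooth muscle actin and the classical marker of myofibroblasts (chr19:34241090-34255336), had 111, 57.6, 52.5 and 42.2 CPM in double-mutant kidneys, 238, 242, 262 and 233 CPM in Fcgr2b-/- kidneys, 56.5, 48.4, 52.5 and 51.6 CPM in Rhbdf2-/- kidneys and 78.6, 75.0, 53.6 and 79.8 CPM in WT kidneys. The 4 Fcgr2b-/- libraries were nearly alike and stood apart from all others, and the double-mutant libraries lay around the WT level, with replicate 1 the highest. Acta2 changed by 1.77 ± 0.21 (limma, adjusted p = 7.95e-06) in Fcgr2b-/- over WT and -1.97 ± 0.21 (limma, adjusted p = 8.08e-06) in double-mutant over Fcgr2b-/- kidneys. Tagln, the actin-binding protein transgelin of smooth muscle and myofibroblasts (chr9:45929628-45936058), had 108, 60.5, 49.5 and 37.7 CPM in double-mutant kidneys, 291, 251, 304 and 155 CPM in Fcgr2b-/- kidneys, 45.1, 40.6, 40.3 and 52.3 CPM in Rhbdf2-/- kidneys and 63.7, 65.6, 52.3 and 58.8 CPM in WT kidneys. It too left a gap between Fcgr2b-/- and every other library, and it changed by 2.00 ± 0.26 (limma, adjusted p = 1.52e-05) and -2.02 ± 0.26 (limma, adjusted p = 3.44e-05). Double-mutant over WT, the log2 changes were -0.20 ± 0.21 for Acta2 and -0.02 ± 0.26 for Tagln (limma adjusted p = 0.612 and 0.98).

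Vim, the intermediate filament vimentin of mesenchymal and blood cells (chr2:13573927-13582826), had 149, 122, 158 and 43.5 CPM in double-mutant kidneys, 353, 238, 289 and 315 CPM in Fcgr2b-/- kidneys, 46.5, 45.0, 56.2 and 53.2 CPM in Rhbdf2-/- kidneys and 58.8, 57.8, 52.4 and 52.0 CPM in WT kidneys. The other 3 double-mutant libraries lay between the Fcgr2b-/- and WT groups without touching either, and replicate 4 lay below all WT libraries. Vim rose in Fcgr2b-/- kidneys by 2.40 ± 0.29 (limma, adjusted p = 8.2e-06) and fell in the double mutant, with a log2 change of -1.48 ± 0.29 (limma, adjusted p = 0.000918). Over WT its log2 change in the double mutant was 0.93 ± 0.29 (limma adjusted p = 0.0653), and without double-mutant replicate 4 it was called higher (limma adjusted p = 3.3e-05). Smooth muscle markers of the vessel wall, all 5 listed, summed to 108 to 158 CPM in double-mutant, 169.9 to 227 CPM in Fcgr2b-/-, 119 to 143 CPM in Rhbdf2-/- and 140.2 to 162 CPM in WT kidneys. Of the 5, 2 rose in Fcgr2b-/- over WT and all 5 fell in double-mutant over Fcgr2b-/- kidneys, and their part in the result was not tested.

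The receptors for platelet-derived growth factor, which mark fibroblasts and pericytes and drive their growth, were less clearly raised. Pdgfra (chr5:75152291-75198204) had 55.9, 57.1, 45.3 and 25.1 CPM in double-mutant kidneys, 91.0, 61.0, 84.1 and 11.0 CPM in Fcgr2b-/- kidneys, 21.3, 28.3, 27.5 and 32.6 CPM in Rhbdf2-/- kidneys and 24.2, 44.8, 37.3 and 32.1 CPM in WT kidneys. In 3 Fcgr2b-/- libraries it lay above every WT library, but Fcgr2b-/- replicate 4 was the lowest of all 16 libraries, at 14.0% of the mean of the other 3. It was not called over WT (0.50 ± 0.49, limma adjusted p = 0.394), and without that library it was (limma adjusted p = 0.00166), as it was in the double mutant over Fcgr2b-/- (limma adjusted p = 0.0211). Pdgfrb lay at 57.4, 63.5, 52.7 and 23.9 CPM in double-mutant, 131, 77.4, 127 and 34.2 CPM in Fcgr2b-/-, 27.3, 37.5, 32.1 and 41.8 CPM in Rhbdf2-/- and 33.0, 38.7, 44.5 and 43.7 CPM in WT kidneys. It rose by 1.02 ± 0.36 in Fcgr2b-/- kidneys (limma adjusted p = 0.0242), a call that was lost without Fcgr2b-/- replicate 1, Fcgr2b-/- replicate 3 or WT replicate 1 (limma adjusted p = 0.0818, 0.0798 and 0.0629). It was not called in the double mutant over Fcgr2b-/- (-0.80 ± 0.36, limma adjusted p = 0.0834), but was without Fcgr2b-/- replicate 4 (limma adjusted p = 0.00322). In whole kidney, fewer cells of a type and less RNA per cell cannot be told apart, for these genes and all others.

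The TGF-beta ligand gene Tgfb1 rose in Fcgr2b-/- kidneys, and so did Ltbp2, which is named for the latent TGF-beta binding family. Tgfb1, the ligand (chr7:25687002-25705077), had 28.8, 31.9, 32.5 and 10.2 CPM in double-mutant kidneys, 62.0, 37.5, 58.5 and 40.0 CPM in Fcgr2b-/- kidneys, 12.3, 13.4, 16.4 and 15.0 CPM in Rhbdf2-/- kidneys and 12.5, 16.7, 15.1 and 13.1 CPM in WT kidneys. Its Fcgr2b-/- values stood above all others, the other 3 double-mutant libraries lay between the Fcgr2b-/- and WT ranges, and double-mutant replicate 4 lay below the lowest WT library. Tgfb1 rose by 1.69 ± 0.28 (limma, adjusted p = 0.000141) and fell in the double mutant, with a log2 change of -1.002 ± 0.28 (limma, adjusted p = 0.00973). Ltbp2, a protein of elastic microfibrils (chr12:84783212-84876532), had 7.67, 6.53, 7.71 and 0.382 CPM in double-mutant kidneys, 64.5, 29.9, 42.2 and 28.2 CPM in Fcgr2b-/- kidneys, 0.245, 0.384, 0.556 and 1.69 CPM in Rhbdf2-/- kidneys and 0.412, 0.363, 0.830 and 0.541 CPM in WT kidneys. Its WT and Rhbdf2-/- levels were close to 0, and it changed by 4.71 ± 0.48 (limma, adjusted p = 1.94e-06) in Fcgr2b-/- over WT and -2.92 ± 0.48 (limma, adjusted p = 0.000245) in double-mutant over Fcgr2b-/- kidneys. These values rested on 10 to 309 reads per double-mutant library, 831 to 2630 per Fcgr2b-/- library, 7 to 53 per Rhbdf2-/- library and 11 to 28 per WT library, and replicate 4 was the double-mutant library with 10.

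Tgfbi, a secreted adhesion protein first found as a TGF-beta induced gene (chr13:56609603-56639339), had 60.8, 88.5, 74.3 and 24.7 CPM in double-mutant kidneys, 115, 72.1, 129 and 95.9 CPM in Fcgr2b-/- kidneys, 16.0, 17.2, 19.1 and 24.9 CPM in Rhbdf2-/- kidneys and 15.3, 17.5, 21.4 and 16.4 CPM in WT kidneys. All its double-mutant libraries lay above all WT libraries, which was so for 1 of the 31 genes and for 6.59% of all kidney genes, and 2 of them lay within the Fcgr2b-/- range. Tgfbi rose by 2.46 ± 0.30 (limma, adjusted p = 9.35e-06) in Fcgr2b-/- kidneys. Its fall in the double mutant was -0.83 ± 0.30 (limma, adjusted p = 0.0349) and was not called without Fcgr2b-/- replicate 1 (limma adjusted p = 0.0791), Fcgr2b-/- replicate 3 (0.0941), double-mutant replicate 1 (0.0511) or double-mutant replicate 4 (0.0839). Macrophages also express Tgfbi, as described further on. Fbn1, the fibrillin that microfibrils are built of and that holds latent TGF-beta, rose by 1.92 ± 0.38 and fell in the double mutant, with a log2 change of -1.36 ± 0.38 (limma adjusted p = 0.000588 and 0.00943), with values of 7.63 to 25.0 CPM in double-mutant, 21.0 to 70.4 CPM in Fcgr2b-/-, 5.59 to 12.8 CPM in Rhbdf2-/- and 8.17 to 13.8 CPM in WT kidneys.

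Postn, the matricellular protein periostin (chr3:54361109-54391034), had 14.7, 3.93, 2.86 and 3.39 CPM in double-mutant kidneys, 12.6, 11.9, 15.1 and 14.1 CPM in Fcgr2b-/- kidneys, 3.55, 3.65, 3.10 and 7.12 CPM in Rhbdf2-/- kidneys and 7.55, 8.26, 9.65 and 7.41 CPM in WT kidneys. Every Fcgr2b-/- library lay above every WT library, and 3 double-mutant libraries lay below all WT libraries while double-mutant replicate 1 was among the highest of all. Over WT it was not called in Fcgr2b-/- kidneys (0.65 ± 0.34, limma adjusted p = 0.112) in the fit that shares its estimate of spread over all genotypes. It was called higher without double-mutant replicate 1 (limma adjusted p = 0.00688) and in a fit of Fcgr2b-/- and WT alone (limma adjusted p = 0.00135). In the double mutant Postn was lower than in Fcgr2b-/- kidneys, with a log2 change of -1.26 ± 0.34 (limma, adjusted p = 0.00756). Without double-mutant replicate 1 it was also lower in the double mutant than in WT (limma adjusted p = 0.0223), against a log2 change of -0.61 ± 0.34 with all libraries (limma adjusted p = 0.296).

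The small leucine-rich proteoglycans, which coat and space collagen fibrils, all rose in Fcgr2b-/- kidneys. Bgn, biglycan (chrX:73483602-73495933), had 358, 382, 403 and 135 CPM in double-mutant kidneys, 1099.8, 662, 858 and 313 CPM in Fcgr2b-/- kidneys, 131, 151, 161 and 183 CPM in Rhbdf2-/- kidneys and 159, 216, 211 and 175 CPM in WT kidneys. All Fcgr2b-/- libraries exceeded WT, replicate 4 by the least, and double-mutant replicate 4 lay below all WT libraries while the other 3 lay above them. Bgn rose by 1.81 ± 0.36 (limma, adjusted p = 0.000548) and fell in the double mutant, with a log2 change of -1.18 ± 0.36 (limma, adjusted p = 0.0148), a fall that was not called without Fcgr2b-/- replicate 1 (limma adjusted p = 0.0515). Dcn, decorin, a proteoglycan of resident fibroblasts that binds TGF-beta (chr10:97479500-97518162), had 91.6, 81.3, 77.2 and 54.2 CPM in double-mutant kidneys, 124, 140.2, 162 and 41.6 CPM in Fcgr2b-/- kidneys, 29.1, 31.9, 32.7 and 53.3 CPM in Rhbdf2-/- kidneys and 38.0, 40.8, 57.9 and 61.1 CPM in WT kidneys. It rose by 1.09 ± 0.34 (limma, adjusted p = 0.0125), although Fcgr2b-/- replicate 4 lay among the WT libraries, and it was not called in the double mutant over Fcgr2b-/- (-0.47 ± 0.34, limma adjusted p = 0.27). Lum, lumican, 47338 bases from Dcn on chromosome 10, had 15.0, 11.7, 8.08 and 3.46 CPM in double-mutant, 23.0, 24.3, 27.0 and 4.65 CPM in Fcgr2b-/-, 3.42, 3.53, 3.92 and 6.87 CPM in Rhbdf2-/- and 4.86, 6.63, 7.73 and 9.07 CPM in WT kidneys. Its Fcgr2b-/- replicate 4 lay below all WT libraries. Lum was called higher in Fcgr2b-/- kidneys with little to spare at 1.15 ± 0.46 (limma, adjusted p = 0.0429), and the call was lost without any 1 of 10 libraries (limma adjusted p from 0.0506 to 0.122). Without Fcgr2b-/- replicate 4, Dcn and Lum were both called lower in the double mutant than in Fcgr2b-/- kidneys (limma adjusted p = 0.00458 and 0.00386).

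Sparc, which binds collagen and calcium and is secreted where matrix is being remodelled (chr11:55394500-55420080), had 328, 229, 223 and 128 CPM in double-mutant kidneys, 809.6, 580.4, 661 and 545 CPM in Fcgr2b-/- kidneys, 124, 139, 136 and 132 CPM in Rhbdf2-/- kidneys and 150.1, 139, 161 and 148 CPM in WT kidneys. The 3 highest double-mutant libraries lay well above all WT libraries and far below all Fcgr2b-/- libraries. Sparc rose by 2.10 ± 0.20 (limma, adjusted p = 1.16e-06) and fell in the double mutant, with a log2 change of -1.57 ± 0.20 (limma, adjusted p = 3.44e-05). Tnc, tenascin-C, a glycoprotein that injured tissue makes transiently (chr4:63959785-64047015), had 18.8, 11.8, 7.44 and 5.08 CPM in double-mutant kidneys, 70.6, 37.7, 42.7 and 26.1 CPM in Fcgr2b-/- kidneys, 3.15, 3.94, 5.33 and 7.40 CPM in Rhbdf2-/- kidneys and 5.01, 10.7, 3.46 and 4.82 CPM in WT kidneys. Fcgr2b-/- kidneys were the highest, without overlap with the double mutant or WT, and WT replicate 2 stood above the other WT libraries. Tnc changed by 2.70 ± 0.38 (limma, adjusted p = 3.31e-05) and -1.99 ± 0.38 (limma, adjusted p = 0.000766).

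The enzymes Lox, Loxl2 and Mmp2 and both inhibitors of metalloproteinases rose in Fcgr2b-/- kidneys and fell in the double mutant. Lox, lysyl oxidase, which starts the cross-linking of collagen and elastin (chr18:52516069-52529867), had 8.83, 6.34, 6.84 and 3.49 CPM in double-mutant kidneys, 61.1, 52.9, 67.6 and 15.5 CPM in Fcgr2b-/- kidneys, 3.42, 3.02, 3.07 and 3.53 CPM in Rhbdf2-/- kidneys and 3.57, 2.98, 3.03 and 4.37 CPM in WT kidneys. Fcgr2b-/- replicate 4 was the lowest of its group and still above every double-mutant library, and 3 double-mutant libraries lay above the WT range. Lox rose by 3.31 ± 0.35 (limma, adjusted p = 2.62e-06) and fell in the double mutant, with a log2 change of -2.64 ± 0.35 (limma, adjusted p = 4.43e-05). Loxl2, a related oxidase that acts on collagen IV, lay at 24.2, 13.8, 10.8 and 6.89 CPM in double-mutant, 64.4, 36.4, 44.0 and 20.9 CPM in Fcgr2b-/-, 6.67, 7.03, 7.23 and 9.18 CPM in Rhbdf2-/- and 6.55, 8.26, 9.13 and 8.59 CPM in WT kidneys. Double-mutant replicate 1 exceeded the lowest Fcgr2b-/- library. Loxl2 rose by 2.12 ± 0.32 (limma, adjusted p = 5.76e-05) and fell in the double mutant, with a log2 change of -1.53 ± 0.32 (limma, adjusted p = 0.0014).

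Mmp2, a gelatinase that stromal cells make (chr8:92827328-92853417), had 16.1, 13.2, 16.3 and 3.00 CPM in double-mutant kidneys, 69.0, 29.3, 42.8 and 20.6 CPM in Fcgr2b-/- kidneys, 2.68, 3.17, 3.28 and 5.00 CPM in Rhbdf2-/- kidneys and 3.66, 4.22, 4.55 and 5.18 CPM in WT kidneys. Its Fcgr2b-/- values were the highest, double-mutant replicates 1 to 3 lay below them and above all WT libraries, double-mutant replicate 4 lay below all WT libraries, and the Rhbdf2-/- and WT ranges overlapped. Mmp2 rose by 2.81 ± 0.41 (limma, adjusted p = 4.74e-05) and fell in the double mutant, with a log2 change of -1.73 ± 0.41 (limma, adjusted p = 0.00359). Timp1, the inducible inhibitor of metalloproteinases (chrX:20870166-20874735), had 3.27, 1.58, 1.84 and 0.135 CPM in double-mutant kidneys, 29.4, 20.8, 26.9 and 8.21 CPM in Fcgr2b-/- kidneys, 0.0903, 0.0582, 0.233 and 0.310 CPM in Rhbdf2-/- kidneys and 0.0875, 0.180, 0.286 and 0.0888 CPM in WT kidneys. It was nearly absent from WT and Rhbdf2-/- kidneys, where it rested on 2 to 9 reads per WT library and 1 to 9 per Rhbdf2-/- library, against 3 to 103 per double-mutant library and 241 to 1197 per Fcgr2b-/- library. Timp1 rose by 4.13 ± 0.37 (limma, adjusted p = 6.9e-07) and fell in the double mutant, with a log2 change of -3.06 ± 0.37 (limma, adjusted p = 2.4e-05), and this scale understates the change of genes with such low values. Timp2, the inhibitor present in most tissues, lay at 64.7 to 123 CPM in double-mutant, 105 to 282 CPM in Fcgr2b-/-, 57.8 to 75.0 CPM in Rhbdf2-/- and 64.5 to 94.2 CPM in WT kidneys, and changed by 1.34 ± 0.26 and -0.99 ± 0.26 (limma adjusted p = 0.00045 and 0.00598).

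**Figure D3:**
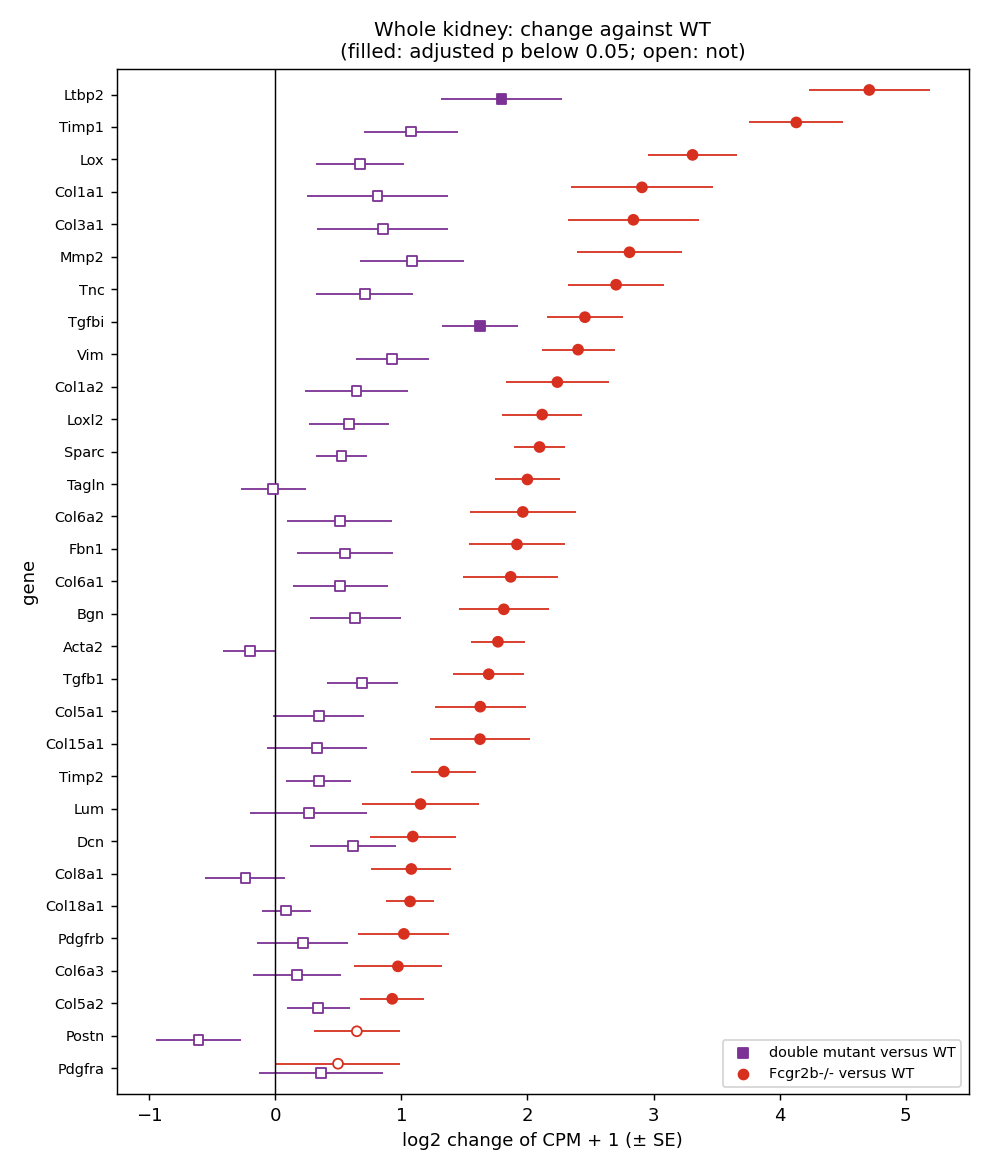
Log2 change with its SE for each of the 31 genes in whole kidney, for double-mutant over WT (squares) and Fcgr2b-/- over WT (circles), with filled symbols where the limma adjusted p was below 0.05. Fcgr2b-/- changes are all above 0 and filled for 29 genes, while double-mutant changes are smaller for every gene and filled only for Ltbp2 and Tgfbi.

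When the fit held only double-mutant and Fcgr2b-/- kidneys, 18 of the 31 genes were called lower in the double mutant in place of 25, and 15% of all kidney genes in place of 22.8%. The calls lost were Bgn (limma adjusted p = 0.0836), Col15a1 (0.0664), Col5a1 (0.0522), Col6a1 (0.0621), Col6a2 (0.066), Tgfb1 (0.0648) and Tgfbi (0.123). Acta2, Tagln, Sparc, Lox and Timp1, which had the smallest adjusted p of the 31 in that comparison, were called in both fits.

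In double-mutant over WT kidneys the 31 genes lay mostly a little above WT, and 2 of them rose by the test. Over the 31 the median log2 change was 0.53 against -0.03 over all genes, and 27 were above 0. Tgfbi rose by 1.63 ± 0.30 (limma, adjusted p = 0.0112) and Ltbp2 by 1.79 ± 0.48 (limma, adjusted p = 0.0376) and 4.52% of all kidney genes were called higher. Ltbp2 was lost without any 1 of 8 libraries (limma adjusted p from 0.0529 to 0.123), and with voom on recovered reads (adjusted p = 0.217). Over Rhbdf2-/- kidneys, the comparison in which both groups lack iRhom2, 1 of the 31 rose in the double mutant, against 2.32% of all genes. This was Tgfbi, by 1.51 ± 0.30 (limma, adjusted p = 0.0239), a call lost without any 1 of 6 libraries (limma adjusted p from 0.0583 to 0.0952). Dcn, which was not called over Rhbdf2-/- (1.05 ± 0.34, limma adjusted p = 0.0866), had its lowest double-mutant value at 54.2 CPM and its highest Rhbdf2-/- value at 53.3 CPM. Double-mutant values lay above all Rhbdf2-/- values in this way for 1 of the 31 genes and for 5.3% of all kidney genes.

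Counts of genes called over WT moved when double-mutant replicate 4 or Fcgr2b-/- replicate 4 was left out, over the 31 and over all genes. The places of libraries within and between groups were counted over the 31 genes only, not over all kidney genes. Double-mutant replicate 4 was the lowest double-mutant library for 29 of the 31 genes, lay within or below the WT range for 30 and below all WT libraries for 21. Ltbp2 there was 5.23% of the mean of the other 3 double-mutant libraries, Timp1 6.03% and Col1a1 12.7%, while Col8a1 was 122%. Without it, 11 of the 31 genes were called higher in the double mutant than in WT (Bgn, Col1a1, Col1a2, Col3a1, Ltbp2, Mmp2, Sparc, Tgfb1, Tgfbi, Timp1 and Vim), against 8.88% of all kidney genes. In the same fit 18 of the 31 were called higher than in Rhbdf2-/- kidneys, against 9.07% of all genes. Fcgr2b-/- replicate 4 was likewise the lowest of its group, for 27 of the 31 genes. The exceptions were Vim (107% of the mean of the other 3), Postn (107%), Tgfbi (90.9%) and Tgfb1 (76.0%). Without that library 4 genes were called higher in the double mutant than in WT (Lox, Ltbp2, Tgfbi and Timp1), against 5.78% of all genes.

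**Figure D4:**
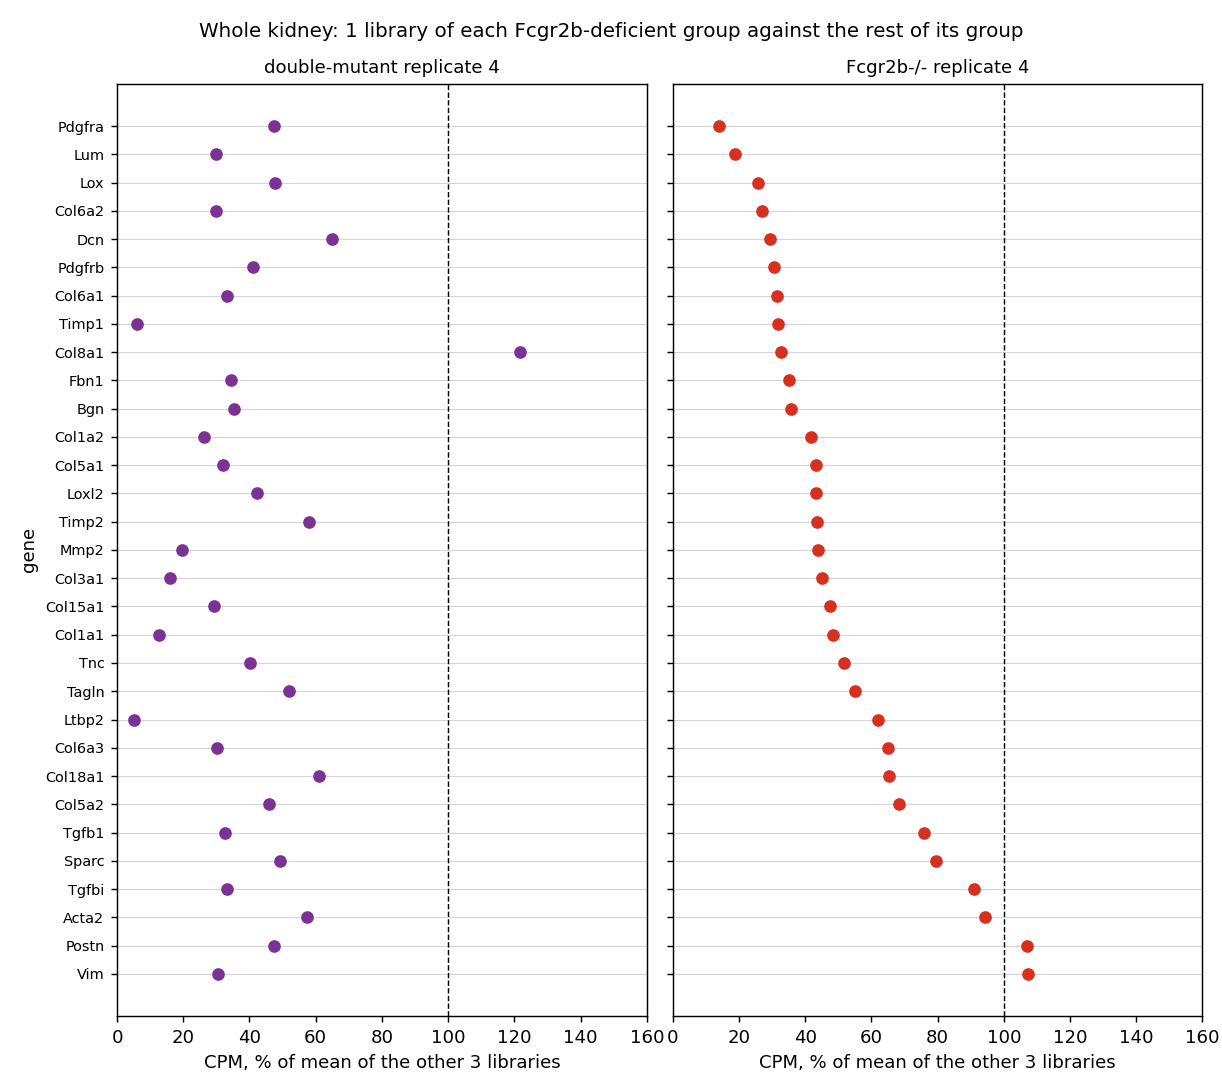
Level of each gene in double-mutant replicate 4 (left) and in Fcgr2b-/- replicate 4 (right) as a percentage of the mean of the other 3 libraries of the same genotype. Nearly all points lie below 100%, down to 5.23% (Ltbp2) on the left and 14.0% (Pdgfra) on the right, and Acta2, Vim, Postn and Tgfbi lie near 100% on the right.

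The CPM of the 31 genes together summed to 2479, 2127, 1992 and 899.9 in double-mutant, 6271, 4116, 5694 and 2959 in Fcgr2b-/-, 914 to 1196 in Rhbdf2-/- and 1123 to 1299 in WT kidneys. Mitochondrial genes took 14.3% of the reads of double-mutant replicate 4, against 9.19 to 9.73% in the other 3. In Fcgr2b-/- replicate 4 they took 14.5%, against 5.87 to 9.06% in the other 3, and in Rhbdf2-/- kidneys 11.4 to 12.0% and in WT kidneys 10.4 to 11.8%. Whether this share had a part in the low matrix levels of both libraries was not tested.

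In Rhbdf2-/- over WT kidneys none of the 31 genes passed the test, and 0% of all kidney genes were called. At an unadjusted p under 0.05 limma counted 272 genes, 1 of them in this group, and limma's voom on recovered reads called 0 at the adjusted threshold. The values of 27 of the 31 genes were below WT on average, with a median log2 change of -0.29 against a value close to 0 over all genes. Postn and Sparc had all Rhbdf2-/- values below all WT values, which was so for 3.2% of all genes. Postn differed by -0.83 ± 0.34, the largest difference of the group, and Col1a1 by -0.69 ± 0.56. Within Rhbdf2-/- kidneys replicate 4 was the highest for 25 of the 31 genes and replicate 1 the lowest for 22, which was not counted over all kidney genes.

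The interaction asks whether loss of Fcgr2b changed a gene less when iRhom2 was missing too. It was called for 10 of the 31 genes, all with a smaller effect of Fcgr2b loss in mice without iRhom2, while 13.9% of all kidney genes were called in that direction. Timp1 (-3.07 ± 0.53, limma adjusted p = 0.000954), Ltbp2 (-3.02 ± 0.68, 0.00493) and Lox (-2.57 ± 0.49, 0.00194) had the largest differences. Tnc (-1.81 ± 0.54, 0.0222), Tagln (-1.59 ± 0.37, 0.00557), Acta2 (-1.53 ± 0.30, 0.00215), Loxl2 (-1.43 ± 0.45, 0.0284), Sparc (-1.40 ± 0.28, 0.00264), Vim (-1.34 ± 0.41, 0.025) and Col18a1 (-0.84 ± 0.27, 0.0315) followed. No fibrillar collagen was among them, with -1.40 ± 0.79 for Col1a1 (limma adjusted p = 0.201) and -1.31 ± 0.74 for Col3a1 (limma adjusted p = 0.198). With limma's voom on reads recovered from the deposited values, the interaction was not called for Ltbp2 (adjusted p = 0.214), Timp1 (0.243), Loxl2 (0.064) or Tnc (0.0548), and 6 calls were made in place of 10, against 12.7% of all genes. The calls of Col18a1 and Loxl2 were lost without any 1 of 9 and of 5 libraries (limma adjusted p from 0.0505 to 0.0621 and from 0.0504 to 0.0588).

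Levels of different genes were compared per kilobase of exon length. Bgn was first in each genotype, at 89.6 CPM per kb in double-mutant, 206 in Fcgr2b-/-, 44.0 in Rhbdf2-/- and 53.3 in WT kidneys. Sparc was next, at 67.4 CPM per kb in double-mutant, 193 in Fcgr2b-/-, 39.4 in Rhbdf2-/- and 44.4 in WT kidneys. Behind them the order differed. Tagln (158) and Acta2 (137) preceded Vim (128) in Fcgr2b-/- kidneys, whereas Vim (50.5) preceded Tagln (40.4) and Acta2 (37.0) in the double mutant. In WT kidneys Acta2 (40.3) and Tagln (37.9) were followed by Dcn (23.7).

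Other genes of the same pathways were counted from lists chosen for their function. Of all listed kidney genes, 29.5% were called higher and 30.8% lower in Fcgr2b-/- over WT kidneys. In double-mutant over Fcgr2b-/- kidneys 22.5% were called higher and 22.8% lower. Of 8 listed TGF-beta targets 7 rose and 1 (Id2) fell in Fcgr2b-/- over WT kidneys, with a median log2 change of 1.34, and 7 fell in the double mutant over Fcgr2b-/-. Ctgf, connective tissue growth factor, averaged 61.8 ± 9.13 CPM in double-mutant kidneys, 228 ± 79.5 CPM in Fcgr2b-/- kidneys, 42.4 ± 9.29 CPM in Rhbdf2-/- kidneys and 41.7 ± 5.45 CPM in WT kidneys (SD, n = 4), and rose by 2.35 ± 0.23 (limma adjusted p = 1.28e-06). Among 20 genes of latent TGF-beta, its receptors and its signalling, 13 rose and 2 fell, with a median of 0.31, and in the double mutant over Fcgr2b-/- 2 rose and 13 fell. The 2 that fell in Fcgr2b-/- kidneys were Itgb8 and Itgb6, integrin chains that free TGF-beta from its latent complex, with log2 changes of -1.18 ± 0.13 and -1.18 ± 0.17 (limma adjusted p = 3.38e-06 and 3.7e-05). Thbs1, thrombospondin 1, which can also activate the latent complex, rose by 1.45 ± 0.18 (limma adjusted p = 1.19e-05).

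Of 7 other collagens 4 rose and 2 fell in Fcgr2b-/- over WT kidneys, and 1 rose and 3 fell in the double mutant over Fcgr2b-/-. Col12a1 and Col5a3 rose by 2.00 ± 0.19 and 2.10 ± 0.22, and Col23a1, a collagen with a transmembrane part, changed by -0.53 ± 0.12, all as called by limma. Of 20 other genes of the interstitial matrix 13 rose and none fell in Fcgr2b-/- kidneys, with a median of 1.36, and 11 fell in the double mutant. They include Eln, elastin (2.08 ± 0.17), Fbln2, fibulin 2 (1.75 ± 0.17), Sparcl1, a relative of Sparc (1.61 ± 0.12), and Spp1, osteopontin, which injured tubules also make (2.09 ± 0.21). Of 19 genes of collagen maturation 10 were higher and 5 lower in Fcgr2b-/- kidneys, where 29.5% of all genes were called higher and 30.8% lower. Bmp1, which trims procollagen I, rose by 1.03 ± 0.11 and Fkbp10, a collagen chaperone, by 1.57 ± 0.23, whereas Leprel1 and P4ha1, hydroxylases of collagen prolines, changed by -1.55 ± 0.13 and -0.76 ± 0.10. Of 15 other genes of matrix degradation 9 rose and 2 fell. Mmp7, matrilysin, rose by 3.20 ± 0.37, Plaur, the urokinase receptor, by 2.19 ± 0.23 and Adamts1 by 1.67 ± 0.20, and Timp3, an inhibitor bound to the matrix, changed by -1.47 ± 0.16, opposite to Timp1 and Timp2.

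Of 20 further contractile and fibroblast activation genes 17 rose and none fell in Fcgr2b-/- kidneys, with a median of 1.20, and 16 fell in the double mutant over Fcgr2b-/-. Tpm1 and Tpm2, tropomyosins, rose by 1.36 ± 0.19 and 1.36 ± 0.17, S100a4 by 2.50 ± 0.37 and Pdpn, podoplanin, by 1.47 ± 0.19. Which cells of the kidney made these transcripts was not tested. Myh11, Smtn and Actg2 were the 3 not called. They belong to the 5 smooth muscle markers above, of which the other 2, Cnn1 and Lmod1, were called higher. Both broadly expressed actins rose as well, Actb by 0.82 ± 0.15 and Actg1 by 0.48 ± 0.09, which is less than Acta2. Pdgfa and Pdgfb, ligands of the receptors above, rose by 1.31 ± 0.16 and 1.41 ± 0.20, and of the 6 listed ligands and further growth factor genes 4 rose and 1 fell.

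Of 9 fibroblast and pericyte markers 7 were listed in kidney, and all 7 are among the 31 genes. Their summed level was 169 to 632 CPM in double-mutant, 523 to 1539.7 CPM in Fcgr2b-/-, 132 to 259 CPM in Rhbdf2-/- and 197 to 289 CPM in WT kidneys. Macrophage markers, 12 of 14 listed, summed to 431 to 1685 CPM in double-mutant, 1029 to 2716 CPM in Fcgr2b-/-, 276 to 409.6 CPM in Rhbdf2-/- and 277 to 327 CPM in WT kidneys, and 11 of the 12 rose in Fcgr2b-/- over WT while 10 rose in double-mutant over WT. Their part in the result was not tested. Tubular injury markers Havcr1 and Lcn2 summed to 6.14 to 93.8 CPM in double-mutant, 298 to 1087 CPM in Fcgr2b-/-, 2.93 to 16.6 CPM in Rhbdf2-/- and 2.56 to 6.11 CPM in WT kidneys. The library with the lowest sum in the double mutant was replicate 4 for fibroblast, macrophage and injury markers alike.

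In sorted macrophages 7 of the 12 genes rose and 2 fell in Fcgr2b-/- over WT cells, where 24.2% of all listed genes were called higher and 28.5% lower. Tgfbi, the member with the highest level there, had 955, 1341 and 1594 CPM in double-mutant macrophages, 2549.5, 2301 and 2014 CPM in Fcgr2b-/- macrophages, 891, 976 and 1046 CPM in Rhbdf2-/- macrophages and 828, 880.4 and 1006 CPM in WT macrophages. All Fcgr2b-/- libraries stood above all others, and the other 3 genotypes overlapped. It rose by 1.34 ± 0.18 (limma, adjusted p = 0.000103) and fell in the double mutant over Fcgr2b-/-, with a log2 change of -0.84 ± 0.18 (limma, adjusted p = 0.00471). Vim had 244, 182 and 155 CPM in double-mutant macrophages, 533, 592.2 and 426 CPM in Fcgr2b-/- macrophages, 40.0, 66.5 and 71.4 CPM in Rhbdf2-/- macrophages and 36.2, 38.0 and 101 CPM in WT macrophages. Double-mutant values lay between those of Fcgr2b-/- cells and those of both groups that carry Fcgr2b, and WT replicate 3 stood above the other WT libraries. Vim rose by 3.28 ± 0.35 (limma, adjusted p = 2.42e-05) and fell in the double mutant over Fcgr2b-/-, with a log2 change of -1.42 ± 0.35 (limma, adjusted p = 0.00984). In all, 6 of the 12 genes fell in that comparison (Acta2, Mmp2, Sparc, Tagln, Tgfbi and Vim), against 13.8% of all genes. All Fcgr2b-/- values lay above all WT values for 7 of the 12 genes and 27.0% of all macrophage genes. All double-mutant values lay below all Fcgr2b-/- values for 6 of the 12 and 20.5% of all genes.

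Mmp2, Sparc, Acta2, Tagln and Bgn, at lower levels in macrophages, rose in Fcgr2b-/- cells as well. Mmp2 had 1.20, 2.88 and 1.84 CPM in double-mutant macrophages, 6.76, 7.41 and 8.72 CPM in Fcgr2b-/- macrophages, 1.70, 2.33 and 0.869 CPM in Rhbdf2-/- macrophages and 0.439, 1.47 and 1.48 CPM in WT macrophages. Fcgr2b-/- libraries were the highest without overlap, with 2.06 ± 0.32 (limma, adjusted p = 0.000251) over WT and -1.57 ± 0.32 (limma, adjusted p = 0.00351) in double-mutant over Fcgr2b-/-. Sparc had 5.89, 2.26 and 4.08 CPM in double-mutant macrophages, 26.2, 15.7 and 37.6 CPM in Fcgr2b-/- macrophages, 10.9, 5.07 and 5.00 CPM in Rhbdf2-/- macrophages and 9.00, 5.91 and 4.27 CPM in WT macrophages, again with Fcgr2b-/- apart from the rest. It changed by 1.86 ± 0.39 (limma, adjusted p = 0.00179) and -2.42 ± 0.39 (limma, adjusted p = 0.00105). Acta2 and Tagln, at 6.88 to 11.1 and 5.92 to 13.6 CPM in Fcgr2b-/- and 0.908 to 3.01 and 2.48 to 4.03 CPM in WT macrophages, rose by 1.72 ± 0.46 and 1.38 ± 0.34 (limma adjusted p = 0.00782 and 0.00504). Bgn rose by 1.49 ± 0.39 (limma, adjusted p = 0.00664) and was not called in the double mutant over Fcgr2b-/- (-0.91 ± 0.39, limma adjusted p = 0.0962).

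Of the 3 collagens listed for macrophages, Col5a2 and Col18a1 fell in Fcgr2b-/- over WT cells. Col5a2 had 3.02, 6.60 and 2.50 CPM in double-mutant macrophages, 4.45, 0.732 and 0.302 CPM in Fcgr2b-/- macrophages, 14.8, 11.2 and 4.03 CPM in Rhbdf2-/- macrophages and 37.9, 28.1 and 4.12 CPM in WT macrophages. WT replicate 3 lay far below the other WT libraries and within the Fcgr2b-/- range. Col5a2 fell by 2.96 on the log2 scale in Fcgr2b-/- over WT cells (SE 0.74, limma adjusted p = 0.00552). With limma's voom on reads recovered from the deposited values the call was lost (adjusted p = 0.112). Col18a1 had 0.598, 4.14 and 2.27 CPM in double-mutant macrophages, 6.28, 3.65 and 2.81 CPM in Fcgr2b-/- macrophages, 5.89, 6.64 and 5.10 CPM in Rhbdf2-/- macrophages and 11.7, 11.1 and 6.44 CPM in WT macrophages. It changed by -1.05 ± 0.39 (limma, adjusted p = 0.0383) in Fcgr2b-/- over WT, a call lost without any 1 of 5 libraries (limma adjusted p from 0.0512 to 0.132), and by -1.80 ± 0.39 (limma, adjusted p = 0.0117) in double-mutant over WT. Without WT replicate 1 or WT replicate 2 Col18a1 was not called in the double mutant over WT (limma adjusted p = 0.0554 and 0.0607). Col15a1, Tgfb1 and Timp2 were not called in any comparison. Tgfb1 lay at 2.39 to 3.23 CPM in double-mutant, 2.39 to 3.14 CPM in Fcgr2b-/-, 3.31 to 3.60 CPM in Rhbdf2-/- and 2.69 to 3.94 CPM in WT macrophages, lower than in any kidney library, though kidney and macrophage tables were made with different kits and normalized separately.

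Over WT, Vim rose in double-mutant macrophages by 1.85 ± 0.35 (limma, adjusted p = 0.00635), where 9.88% of all genes were called higher, and Col18a1 fell, where 8.58% were called lower. Over Rhbdf2-/- cells Vim rose in the double mutant by 1.71 ± 0.35 (limma, adjusted p = 0.0107) and 9.2% of all genes were called higher. In Rhbdf2-/- over WT macrophages limma called 0 of the 12 genes, against 0.019% of all genes. At an unadjusted p under 0.05 it counted 0 of the 12 and 339 of all genes. The interaction was called for 3 of the 12, all lower, against 5.89% of all genes in that direction. They were Mmp2 (-1.88 ± 0.45, limma adjusted p = 0.0207), Sparc (-2.51 ± 0.55, 0.0159) and Tgfbi (-0.95 ± 0.25, 0.0337). Mmp2 was lost without Rhbdf2-/- replicate 1 or 2 (limma adjusted p = 0.0558 and 0.0541) or with voom on recovered reads (adjusted p = 0.0502) and Tgfbi without any 1 of 7 libraries (limma adjusted p from 0.0593 to 0.0749).

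**Figure D5:**
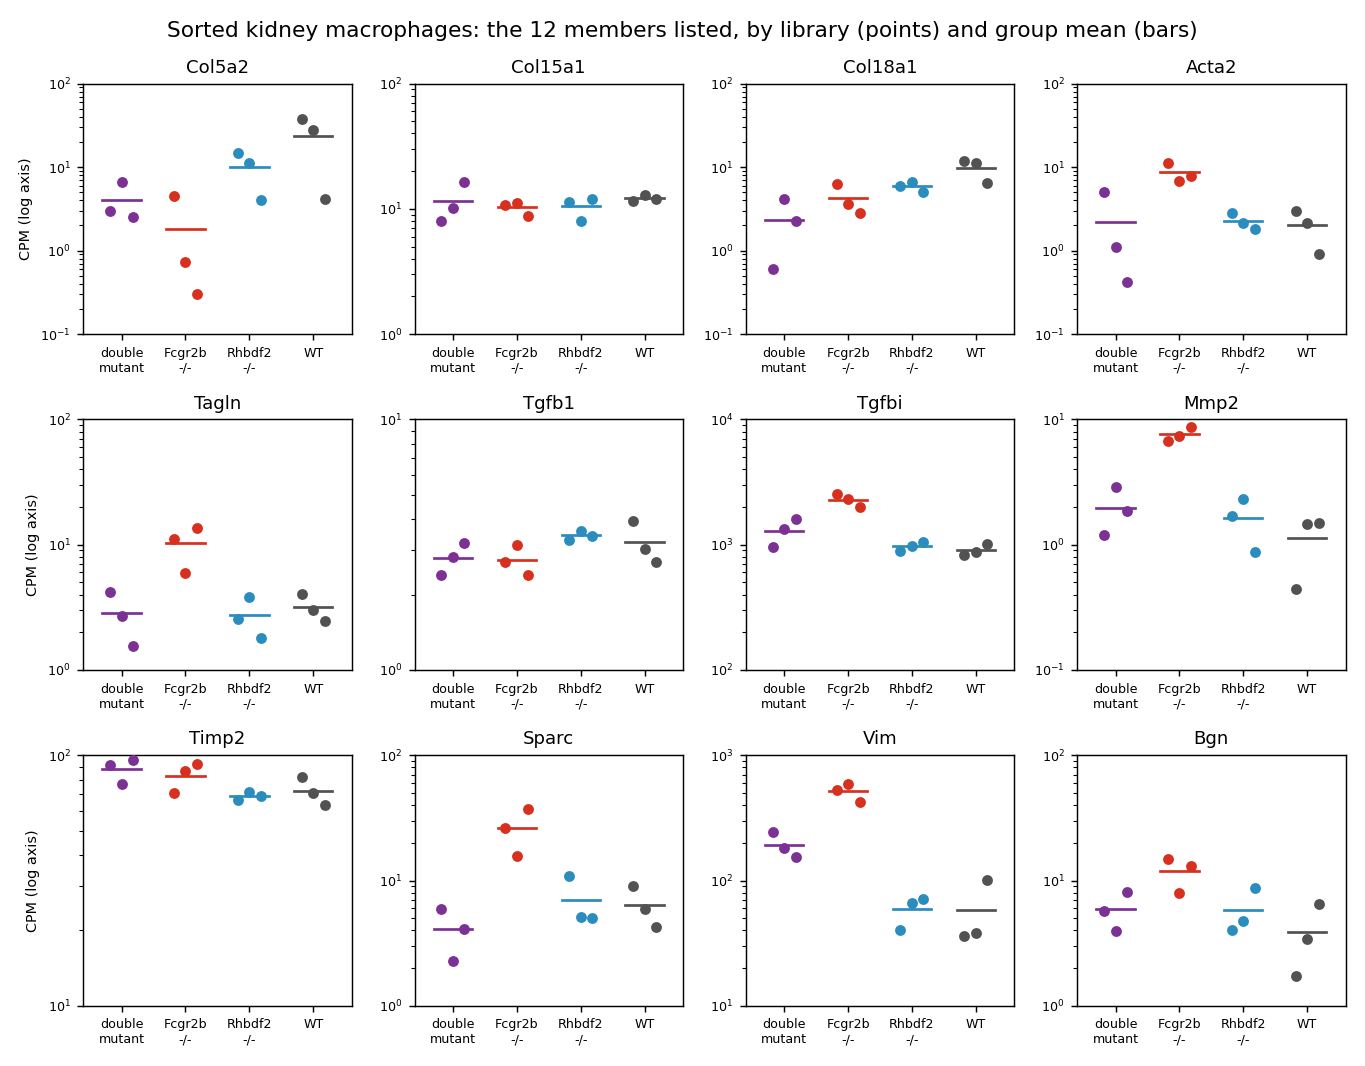
Level in CPM (log axis) of the 12 listed genes in each macrophage library, by genotype, with 1 point per library and the group mean as a bar. Fcgr2b-/- libraries are the highest without overlap for Acta2, Tagln, Tgfbi, Mmp2, Sparc and Vim, and double-mutant Vim values lie between Fcgr2b-/- and the other 2 genotypes. Of all macrophage genes, 27.0% lay above WT without overlap in Fcgr2b-/- cells.

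No marker of the fibroblast and pericyte list (0 of 9, among them Col1a1, Col3a1 and Pdgfrb) and 1 of 5 smooth muscle markers, Smtn, was among the genes listed for macrophages. Pf4, the 1 listed gene of 3 platelet markers, lay at 23.7 to 45.5 CPM in double-mutant, 104 to 275 CPM in Fcgr2b-/-, 57.0 to 94.9 CPM in Rhbdf2-/- and 50.8 to 82.5 CPM in WT macrophages. The other platelet markers, Ppbp and Gp9, were not listed, and Pf4 alone does not show that platelets were present. Proximal tubule markers summed to 139.5 to 219 CPM in double-mutant, 62.9 to 354 CPM in Fcgr2b-/-, 492 to 998 CPM in Rhbdf2-/- and 239 to 793 CPM in WT macrophages, lower in the 2 groups without Fcgr2b than in Rhbdf2-/- cells. Thick limb and distal tubule markers (3 of 3 listed) summed to 407 to 2233 CPM in double-mutant and 379 to 1009 CPM in Fcgr2b-/- macrophages. They summed to 2699 to 3041 CPM in Rhbdf2-/- and 1485 to 6778 CPM in WT macrophages. Mesangial and renin cell markers (2 of 4 listed) summed to 6.65 to 7.14 CPM in Fcgr2b-/- and 62.9 to 67.0 CPM in WT macrophages. The 1 listed endothelial marker lay at 6.58 to 25.9 CPM in Fcgr2b-/- and 21.0 to 22.3 CPM in WT macrophages. Whether cells other than macrophages had a part in the changes of Sparc, Acta2, Tagln and the collagens was not tested.

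The authors' deposited table called 29 of the 31 genes in kidney in Fcgr2b-/- and WT, 25 in Fcgr2b-/- and double mutant, 4 in double mutant and WT and 0 in Rhbdf2-/- and WT. Of all kidney genes, the authors' deposited table called 60.1%, 44.6%, 9.14% and 0% in those comparisons. Of these calls in the authors' deposited table, 29, 24, 2 and 0 were also made here. In macrophages the authors' deposited table called 8, 5, 2 and 0 of the 12 genes, against 51.8%, 28.7%, 14.7% and 0% of all genes, and all of its calls among the 12 were made here too.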

How the data were processed

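Polyadenylated RNA had been sequenced as single reads from whole kidney (TruSeq) and sorted kidney macrophages (SMART-Seq v4), per the labels' protocols. The deposited expression values are log2 CPM per library, computed by the authors, per the file headers. The deposited table also holds the authors' log2 fold changes, mean log2 CPM, p-values and FDR and an F score per comparison, and gene length, per the file headers. The builds mm10 and GRCm38 are those of the submitters' processing notes. Overlapping genes are uncertain, since the aligner, counting, annotation and use of strand were not given in the sources used here. Genes that the deposited tables do not list were not analysed here. Deposited starts count from 0 and were turned to 1-based positions. There were 0 other value columns and 0 pairs of libraries with identical values.

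The deposited log2 values were turned back to CPM. Over all listed genes, limma 3.58.1 (trend, R 4.3.3) was fitted to log2(CPM + 1) tissue by tissue, and all 4 genotypes stood in each fit and shared the estimate of spread. The scale understates changes of genes with low values. Contrasts of group means were adjusted by Benjamini-Hochberg over all genes and called below 0.05. The interaction is double mutant minus Rhbdf2-/-, less Fcgr2b-/- minus WT. Errors are the SE of limma. Low values were whole multiples of 1 read (100%, tolerance 0.1), which gave the reads per library. A floor of 3 reads covers counting error only. The procedure was tested on simulated data. Figures were drawn with matplotlib 3.10.9 in Python 3.11.15. Alternatives were log2 CPM as deposited, another scaling between libraries, genes with a mean of at least 1 CPM, a fit of the 2 genotypes alone, voom on recovered reads and leaving out each library. Leaving out replicate 4 of both the double mutant and Fcgr2b-/- was chosen after seeing the data. All 31 genes are reported, and up to 4 genes of a pathway list with the smallest p in Fcgr2b-/- versus WT kidneys were named, except 1 that is not reported here. The genes, the lists and the tests were chosen with earlier results of these data known.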

Additional observations from a re-analysis of the deposited data

Results flagged for a closer look

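In 8 groups of 4 kidney libraries, of 124 groups tested, 1 library stood far from the other 3 by Dixon's criterion, and chance flags about 5% of groups. Double-mutant replicate 4 stood low for Tgfb1 (10.2 CPM, others 28.8 to 32.5), Ltbp2 (0.382 CPM, others 6.53 to 7.71) and Bgn (135 CPM, others 358 to 403). Double-mutant replicate 1 stood high for Postn (14.7 CPM, others 2.86 to 3.93). Rhbdf2-/- replicate 4 stood high for Postn (7.12 CPM, others 3.10 to 3.65), Dcn (53.3 CPM, others 29.1 to 32.7) and Lum (6.87 CPM, others 3.42 to 3.92). WT replicate 1 stood low for Col6a1 (15.7 CPM, others 22.5 to 23.7).

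The effect of Fcgr2b loss in mice without iRhom2 was smaller than its effect in mice with iRhom2 for 13 values by the interaction term of limma. In kidney the differences of log2 changes were -3.07 for Timp1, -3.02 for Ltbp2, -2.57 for Lox, -1.81 for Tnc, -1.59 for Tagln, -1.53 for Acta2, -1.43 for Loxl2, -1.40 for Sparc, -1.34 for Vim and -0.84 for Col18a1. In macrophages they were -2.51 for Sparc, -1.88 for Mmp2 and -0.95 for Tgfbi.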

How the results depend on the processing

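Leaving out single libraries moved the counts of called genes most where the double mutant was compared with WT or Rhbdf2-/- kidneys. Over WT the 2 calls became 1 on the deposited log2 CPM, 1 with the 2 genotypes alone, 1 with voom, 1 to 11 without single libraries and 21 without replicate 4 of both the double mutant and Fcgr2b-/-. Over Rhbdf2-/- kidneys the single call became 0 to 18 without single libraries and 26 without both. For the interaction in kidney 10 calls became 6 with voom, where the share of all genes called lower went from 13.9% to 12.7%. The 10 calls became 8 to 17 without single libraries and 19 without both, settings for which shares over all genes are not given here. In macrophages, where shares over all genes are not given for these settings, the count over WT went to 1 with the 2 genotypes alone and to 1 to 4 without single libraries, over Rhbdf2-/- to 1 to 2 and for the interaction to 1 to 6. The cause was not tested. Over all kidney genes, the double mutant differed from Rhbdf2-/- for 431 genes, 77 with voom and 2424 without both libraries, from WT for 898, 479 and 2459, and from Fcgr2b-/- for 5578 and, with the 2 genotypes alone, 3550. In macrophages double mutant over WT gave 1943 genes, or 599 with the 2 genotypes alone. In kidney 68 of 4061 recomputed gene values lost their call, 115 gained one and 0 reversed, and in macrophages 20, 13 and 0 of 1212. Of the values never called, 46 in kidney and 36 in macrophages changed sign. Voom ended the interaction calls of Loxl2 (adjusted p = 0.064), Ltbp2 (0.214), Timp1 (0.243) and Tnc (0.0548) in kidney and of Mmp2 (0.0502) in macrophages, and the Ltbp2 rise in the double mutant over WT (0.217). Timp1 and Ltbp2 rest on few reads in most libraries outside Fcgr2b-/- kidneys. No paired analysis was possible because the labels give the libraries no replicate numbers shared between groups.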

Other observations

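For markers of other cell types in whole kidney, the summed levels of endothelial, mesangial and renin cell, collecting duct, podocyte, and B and plasma cell markers overlapped between Fcgr2b-/- and WT kidneys. Those of thick limb and distal tubule markers were lower, and those of T and NK cell, neutrophil and platelet markers higher, in every Fcgr2b-/- library than in every WT library. Of single kidney genes, 25.3% lay above and 26.4% below WT in this way. Of the 3 listed T and NK cell markers 0 were called in that comparison, and the neutrophil and platelet values rest on 1 gene each. Endothelial markers (5 of 5 listed) summed to 352.3 to 399 CPM in double-mutant, 372 to 443 CPM in Fcgr2b-/-, 366 to 373 CPM in Rhbdf2-/- and 379 to 455 CPM in WT kidneys. Markers of mesangial and renin cells (4 of 4) summed to 126 to 143 CPM in double-mutant, 82.5 to 183 CPM in Fcgr2b-/-, 115 to 153 CPM in Rhbdf2-/- and 122 to 149 CPM in WT kidneys. Collecting duct markers (2 of 2) summed to 397 to 713 CPM in double-mutant, 495 to 652 CPM in Fcgr2b-/-, 372 to 578.7 CPM in Rhbdf2-/- and 362 to 882 CPM in WT kidneys and thick limb and distal tubule markers (3 of 3) to 6999 to 9739.7 CPM in double-mutant, 5443 to 7607 CPM in Fcgr2b-/-, 7893 to 9128 CPM in Rhbdf2-/- and 7818 to 8201 CPM in WT kidneys. Podocyte markers (3 of 3) summed to 409 to 517 CPM in double-mutant, 241 to 500.1 CPM in Fcgr2b-/-, 397 to 484 CPM in Rhbdf2-/- and 428 to 505 CPM in WT kidneys. T and NK cell markers (3 of 5) summed to 2.45 to 46.2 CPM in double-mutant, 3.62 to 11.3 CPM in Fcgr2b-/-, 1.94 to 5.71 CPM in Rhbdf2-/- and 1.71 to 3.12 CPM in WT kidneys and B and plasma cell markers (3 of 6) to 10.8 to 67.1 CPM in double-mutant, 4.16 to 724 CPM in Fcgr2b-/-, 12.2 to 98.7 CPM in Rhbdf2-/- and 13.3 to 31.5 CPM in WT kidneys. The 1 listed neutrophil marker lay at 1.52 to 11.6 CPM in double-mutant, 2.64 to 14.7 CPM in Fcgr2b-/-, 0.245 to 0.997 CPM in Rhbdf2-/- and 0.500 to 0.727 CPM in WT kidneys and the 1 listed platelet marker, Pf4, at 0.241 to 2.10 CPM in double-mutant, 3.93 to 8.48 CPM in Fcgr2b-/-, 0.177 to 0.438 CPM in Rhbdf2-/- and 0.180 to 0.530 CPM in WT kidneys.

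Of all listed macrophage genes, 24.2% were called higher and 28.5% lower in Fcgr2b-/- over WT cells. In double-mutant over Fcgr2b-/- cells 15.8% were called higher and 13.8% lower. In macrophages 4 of 5 TGF-beta targets listed rose in Fcgr2b-/- over WT cells and 3 fell in double-mutant over Fcgr2b-/- cells. Of 9 genes of matrix degradation 6 rose and 2 fell in Fcgr2b-/- over WT cells, with a median log2 change of 2.80 against -0.09 over all genes, and 1 rose and 6 fell in double-mutant over Fcgr2b-/- cells. Of 7 other genes of the interstitial matrix 4 rose in Fcgr2b-/- over WT cells and the same number fell in double-mutant over Fcgr2b-/- cells.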
